A study of Mus musculus with 40 samples.

Results

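The transcriptional response of cardiac fibroblasts to tumour necrosis factor α (TNFα) was measured with the kinase TAK1 intact. The comparison was defined by the sample titles: 4 libraries of fibroblasts carrying the LacZ virus and given TNFα were set against 4 of LacZ fibroblasts given no ligand (CTRL), 8 of the 40 libraries of the series. All genes with at least 10 counts over the 40 libraries entered the comparison, 25210 of the 55414 Ensembl genes in the count table. The fibroblasts came from hearts of adult male TAK1 fl/fl mice on a C57BL/6J background, in which exon 2 of the TAK1 gene lies between loxP sites, and were used at passage 1. Every culture received an adenovirus with a CMV promoter, ad-CMV-LacZ in the groups compared here and ad-CMV-iCre where TAK1 was to be deleted, so that CTRL and TNFα cells alike were transduced and carried the floxed alleles. After serum starvation, TNFα was given at 10 ng/ml for 24 h, and other cultures of the series received IL-1β at 15 ng/ml, TGFβ or bFGF. The 4 replicates are described as biological, and the cells of a replicate number were treated as a pair. CTRL and TNFα libraries with the same number deviated together from their group means.

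TNFα binds 2 receptors, of which TNFR1 (Tnfrsf1a) is found on nearly all cells and TNFR2 (Tnfrsf1b) on fewer. The study's methods give the TNFα by a catalogue number that may be of the human protein, without naming its species. Human TNFα binds mouse TNFR1 but hardly mouse TNFR2, so whether both receptors were engaged in these cells is not known. At TNFR1, the adaptor TRADD, the kinase RIPK1 and ubiquitin ligases of the cIAP family build a platform on which TAK1 and its TAB partners activate the IκB kinases, the IκB proteins are degraded and NF-κB dimers enter the nucleus. NF-κB induces chemokines, adhesion molecules and survival genes together with its own inhibitors, IκBα and A20. In the injured heart, fibroblasts exposed to TNFα recruit leukocytes and remodel the extracellular matrix.

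Total counts of the 8 libraries lay between 26496502 and 51264530. Levels are given as CPM, the count of a gene relative to the total of its library after TMM scaling. They are listed in the order of replicates 1, 2, 3 and 4. Differences are log2 fold changes (TNFα over CTRL) ± SE from the paired edgeR fit, with p-values adjusted over all genes tested. The SE was derived as the size of the log2 fold change over the square root of the F statistic of its test. It is not the spread over the 4 pairs. Where pairing decided a call, the adjusted p of the fit without it is given as unpaired. Replicate 2 stood apart from the other numbers in CTRL and TNFα libraries alike. Its Il1rl1 level, for example, was 161 CPM in CTRL and 711 CPM with TNFα, against at most 1.92 and 8.71 CPM in the other numbers.

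The cultures carried fibroblast transcripts at a high level. Over 9 fibroblast markers (the chains Col1a1, Col1a2 and Col3a1 of fibrillar collagen, Dcn, Vim, Thy1, Tcf21, Ddr2 and Pdgfra) the summed level was 30019.8 to 46883 CPM in CTRL and 25473 to 34023 CPM with TNFα. By comparison, 5 endothelial markers summed to 24.3 to 26.1 CPM in CTRL and 7.88 to 15.9 CPM with TNFα, and 7 leukocyte and macrophage markers to 50.1 to 145 and 41.2 to 157 CPM. Of all genes tested, 16.9% were called higher with TNFα and 18.3% lower. Of the fibroblast markers 1 was called higher with TNFα and 5 lower (0 and 1 unpaired), of the endothelial markers 2 of 5 lower (1 unpaired, 1 without replicate 4), of the leukocyte markers 2 of 7 higher (0 unpaired, 1 without replicate 3 or 4) and of 4 epicardial markers 2 lower (1 unpaired, 1 without replicate 4). Ptprc, which encodes the pan-leukocyte antigen CD45, lay at 0.527 to 1.8 CPM in CTRL and at 0.489 to 2.08 CPM with TNFα. Mural markers moved with the treatment, and 5 of 5 were lower with TNFα (2 of 5 unpaired), with sums of 192 to 733 and 143 to 501 CPM. Among them were Kcnj8 and Abcc9, which encode the channel pore and the sulfonylurea receptor of a vascular KATP channel. Kcnj8 was at 4.55, 4.63, 4.42 and 2.82 CPM in CTRL and at 0.271, 0.21, 0.193 and 0.303 CPM with TNFα (-4.09 ± 0.21, adjusted p = 1.67e-06), and Abcc9 fell from 4.99 ± 0.59 to 0.699 ± 0.182 CPM (SD, n = 4; -2.82 ± 0.16, adjusted p = 2.97e-06). Tnnt2, which encodes cardiac troponin T, lay at 110.3, 14.6, 43.2 and 28.4 CPM in CTRL and 6.65, 0.874, 4.2 and 2.5 CPM with TNFα, a change of -3.72 ± 0.12 (adjusted p = 1.92e-07), and 2 of the 4 cardiomyocyte markers tested were called lower (1 unpaired, 1 without replicate 1, 3 or 4). Myh6, the cardiomyocyte myosin, was below the count filter. In RNA of whole cultures, fewer cells of a type and less RNA per cell cannot be told apart, and the part of these other cell types in the results below was not tested.

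TNFα changed the levels of a large share of the transcripts. Of the 25210 genes, 4269 (16.9%) were higher and 4624 (18.3%) lower than in CTRL at an adjusted p of at most 0.05, and the unpaired fit called 2809 and 2811. A change of at least 1 on the log2 scale was seen for 1084 of the higher genes (4.3% of those tested) and 1555 of the lower genes (6.17%), and the median log2 fold change over all genes tested was -0.08. The gene lists are read against these shares. In the plot of level against fold change, called genes lie on both sides of 0.

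**Figure D1:**
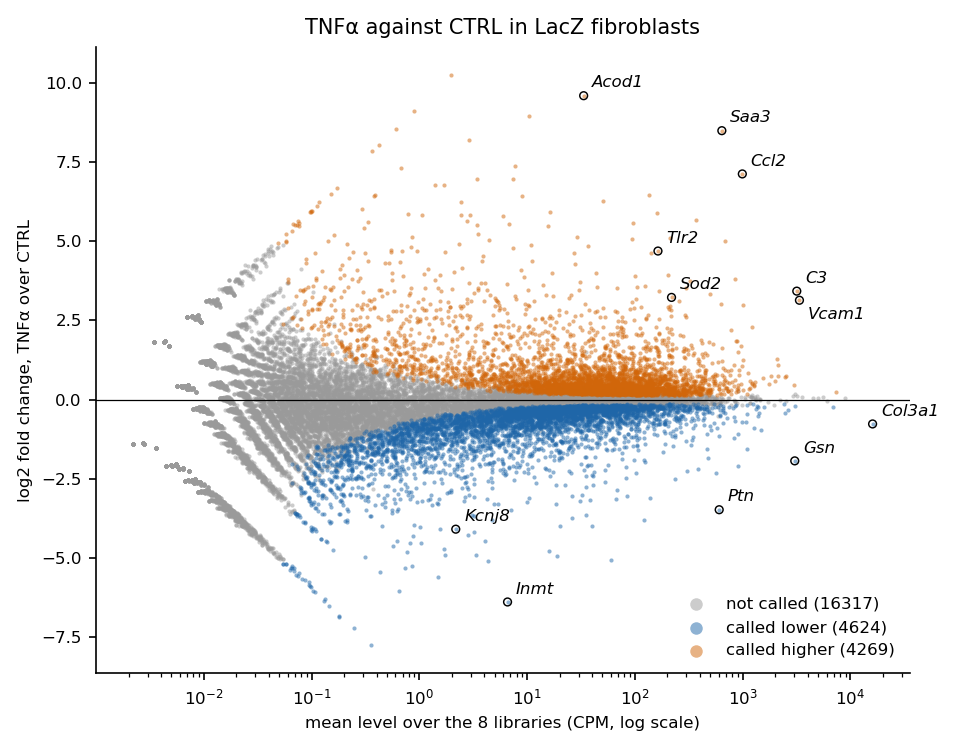
Log2 fold change of TNFα over CTRL (vertical axis) against the mean level over the 8 libraries in CPM (horizontal axis, log scale) for the 25210 genes tested; orange points are the 4269 genes called higher, blue points the 4624 called lower and grey points the others. Vcam1, C3, Ccl2 and Saa3 combine a high level with a rise of more than 3 on the log2 scale, while Col3a1 fell by 0.77.

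The markers chosen for this condition, Tlr2 and Sod2, both rose. They were chosen with earlier results of these data known, so their rise is a description and not a test of them as markers. Tlr2, the receptor for bacterial lipopeptides, was measured at 12.1, 10.9, 11.6 and 14.1 CPM in CTRL and at 362, 253, 330.3 and 315 CPM with TNFα. The lowest TNFα library was far above the highest CTRL library, and the log2 fold change was 4.69 ± 0.09 (adjusted p = 7.56e-09), or 25.8-fold. Sod2, the manganese superoxide dismutase of the mitochondria, rose from 46.8, 42.9, 39.9 and 38.1 CPM to 423, 476, 349 and 334 CPM. The groups were again separate, and the change was 3.23 ± 0.08 (adjusted p = 2.47e-08), or 9.37-fold.

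**Figure D2:**
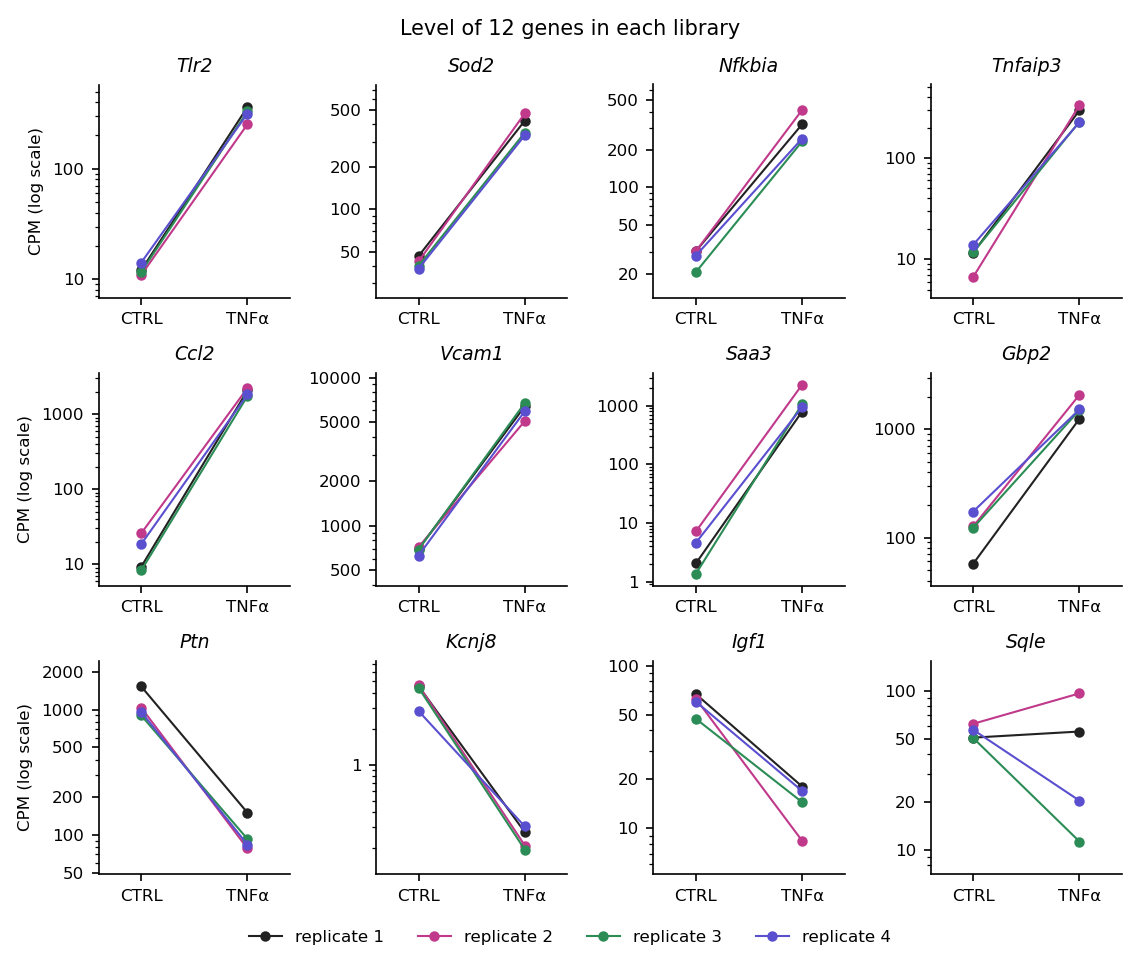
Level in CPM (vertical axes, log scale) of 12 genes in the 4 CTRL and 4 TNFα libraries of LacZ fibroblasts; lines join the libraries of a replicate number. In the panels of Tlr2, Sod2, Nfkbia, Tnfaip3, Ccl2, Vcam1, Saa3 and Gbp2 each TNFα library lies above each CTRL library, those of Ptn, Kcnj8 and Igf1 show the reverse, and the groups of Sqle overlap.

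Most genes of the receptor platform rose. Of the 23 members of the TNF receptor complex list, 16 were higher with TNFα and 0 lower by edgeR (14 and 0 unpaired, and 3 lower at an unadjusted p under 0.05 and 0 by DESeq2), with a median log2 fold change of 0.44. The receptor genes differed. Tnfrsf1b was at 50.1, 78.6, 47.1 and 49.6 CPM in CTRL and 108, 94.5, 87.2 and 88.9 CPM with TNFα (0.78 ± 0.11, adjusted p = 0.000694), whereas Tnfrsf1a was at 297 ± 13.6 CPM in CTRL and 278 ± 20.3 CPM with TNFα (SD, n = 4), with a difference of -0.10 ± 0.05 that did not pass the test (adjusted p = 0.195). The rises of 2 or more on the log2 scale were those of Traf1, Birc2 and Birc3. Traf1, an adaptor of TNFR2, rose from 0.335, 1.52, 0.763 and 0.726 to 4.31, 13.7, 6.58 and 8.33 CPM (3.3 ± 0.13, adjusted p = 4e-07). Birc2 and Birc3, which encode the ubiquitin ligases cIAP1 and cIAP2, rose by 2.11 ± 0.05 and 3.16 ± 0.08 on the log2 scale (adjusted p = 2.67e-08 and 3.11e-08). Birc2 counts were 41.1 to 47.2 CPM in CTRL and 177 to 205 CPM with TNFα. The deubiquitinase gene Cyld rose by 1.07 ± 0.06 (adjusted p = 1.69e-06), the HOIP ligase gene Rnf31 by 0.77 ± 0.08 (adjusted p = 6.59e-05) and Cflar, which encodes the caspase-8 inhibitor c-FLIP, by 0.45 ± 0.05 (adjusted p = 0.000218). Map3k7, the TAK1 gene itself, was at 155, 144, 154 and 159 CPM in CTRL and 251, 209, 243 and 251 CPM with TNFα (0.64 ± 0.05, adjusted p = 1.32e-05), a count over all exons of the gene.

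Subunits and inhibitors of NF-κB rose together. Of 14 genes, 12 were higher, each by at least 1 on the log2 scale, and 0 lower (12 and 0 unpaired, and 0 lower at an unadjusted p under 0.05 or by DESeq2), and the median change was 1.53. Among the subunits, Relb, a partner of p52 in the non-canonical pathway, was at 29.7, 27.5, 27.8 and 31.9 CPM in CTRL and 171, 182, 167 and 149.8 CPM with TNFα (2.52 ± 0.08, adjusted p = 1.88e-07). Nfkb2, the p52 precursor, rose by 2.07 ± 0.06, Rela by 1.25 ± 0.06, Rel by 1.29 ± 0.09 and Nfkb1 by 1.19 ± 0.06, all with adjusted p of 6.3e-06 or below. Each of these subunit genes was higher in 4 of 4 pairs.

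Among the inhibitors, 4 rose by more than 3 on the log2 scale. Nfkbia, which encodes IκBα, rose from 30.7, 30.6, 20.8 and 28.3 to 319.6, 416, 233 and 245 CPM (3.44 ± 0.10, adjusted p = 1.13e-07), and Nfkbie, which encodes IκBε, from 13.9, 12.5, 11.3 and 12.3 to 202, 209, 176 and 169.7 CPM (3.92 ± 0.07, adjusted p = 7.23e-09). Tnfaip3, the gene of the ubiquitin-editing enzyme A20, rose from 11.6, 6.65, 11.6 and 13.8 to 296, 333, 229 and 226 CPM (4.64 ± 0.23, adjusted p = 1.46e-06). The TNFα libraries of all 3 genes lay far above their CTRL libraries, with no overlap. Tnip1, which encodes the A20 partner ABIN1, rose by 3.13 ± 0.08 (adjusted p = 4.45e-08). The 2 genes without a call were Nfkbiz, with a change of 0.32 ± 0.11 (adjusted p = 0.0531, and called higher by 0.47 without replicate 2), and Tnip2, with -0.09 ± 0.07 (adjusted p = 0.4).

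The promoters of Tlr2, Sod2, Nfkbia, Tnfaip3, Cxcl10 and Ifit1 are given here, from RefSeq on GRCm38.p6, because they rose with TNFα and hold matches to the 2 motifs discussed here. Each runs from 250 bases before the annotated transcription start to 2 bases after it, 5' to 3' on the strand of the gene. Capitals mark matches, on either strand, to the 10-base NF-κB consensus or, in Cxcl10 and Ifit1, to the interferon-stimulated response element (ISRE, searched as a pair of GAAA runs with any 2 bases between them), and overlapping matches run together. The windows are those of Tlr2 (chr3:83841607-83841858, minus strand), Sod2 (chr17:13007589-13007840, plus strand), Nfkbia (chr12:55492646-55492897, minus strand), Tnfaip3 (chr10:19015409-19015660, minus strand), Cxcl10 (chr5:92348888-92349139, minus strand) and Ifit1 (chr19:34640639-34640890, plus strand).
Tlr2: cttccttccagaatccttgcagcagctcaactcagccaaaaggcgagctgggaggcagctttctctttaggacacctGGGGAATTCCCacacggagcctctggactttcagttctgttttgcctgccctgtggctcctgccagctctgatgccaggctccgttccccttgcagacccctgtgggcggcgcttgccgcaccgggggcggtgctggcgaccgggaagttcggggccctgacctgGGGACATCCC
Sod2: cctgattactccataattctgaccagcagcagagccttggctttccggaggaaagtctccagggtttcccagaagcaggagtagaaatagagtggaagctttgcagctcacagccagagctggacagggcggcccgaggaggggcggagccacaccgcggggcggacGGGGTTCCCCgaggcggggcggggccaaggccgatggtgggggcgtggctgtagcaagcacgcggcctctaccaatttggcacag
Nfkbia: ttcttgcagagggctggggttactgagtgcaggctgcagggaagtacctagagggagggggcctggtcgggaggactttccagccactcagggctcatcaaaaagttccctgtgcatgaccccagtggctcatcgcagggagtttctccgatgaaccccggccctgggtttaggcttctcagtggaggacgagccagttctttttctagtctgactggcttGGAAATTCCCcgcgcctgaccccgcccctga
Tnfaip3: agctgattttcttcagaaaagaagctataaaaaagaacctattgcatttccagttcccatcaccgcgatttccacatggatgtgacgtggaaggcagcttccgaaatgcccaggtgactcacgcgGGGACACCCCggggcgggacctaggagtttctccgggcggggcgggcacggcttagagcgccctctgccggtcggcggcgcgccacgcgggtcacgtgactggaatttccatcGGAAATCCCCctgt
Cxcl10: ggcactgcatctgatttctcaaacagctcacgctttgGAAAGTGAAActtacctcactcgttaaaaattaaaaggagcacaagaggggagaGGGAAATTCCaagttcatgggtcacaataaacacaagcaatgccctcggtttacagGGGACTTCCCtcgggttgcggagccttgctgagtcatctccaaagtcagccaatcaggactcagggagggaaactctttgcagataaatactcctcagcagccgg
Ifit1: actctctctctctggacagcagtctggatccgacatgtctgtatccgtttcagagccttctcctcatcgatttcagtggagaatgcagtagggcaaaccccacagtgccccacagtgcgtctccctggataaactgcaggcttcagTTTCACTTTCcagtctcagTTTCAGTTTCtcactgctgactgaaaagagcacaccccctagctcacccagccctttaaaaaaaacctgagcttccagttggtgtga

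In these windows the NF-κB consensus began 173, 172 and 8 bases before the start of Tlr2, 83 before that of Sod2, 29 before that of Nfkbia and 125 and 12 before that of Tnfaip3. Cxcl10 held NF-κB matches at 159 and 103 bases and an ISRE match at 213 bases, and Ifit1 held ISRE matches at 104 and 85 bases. Of 14603 tested genes with a promoter in the RefSeq table, taken from 250 bases before to 50 after the start, 6.37% held an NF-κB match (95% Wilson interval 5.98 to 6.78%) and 3.76% an ISRE match (3.46 to 4.08%). Among the genes higher by at least 1 on the log2 scale the shares were 14.7% (12.4 to 17.4%, 761 genes) and 11.7% (9.6 to 14.2%), and among those lower by at least 1 they were 6.52% (5.17 to 8.19%, 1028 genes) and 3.11% (2.21 to 4.36%). For the NF-κB list, 8 of the 11 genes with a promoter in the table held the NF-κB consensus and 0 the ISRE, a description of these windows only, and for the interferon list 17 of 26 held the ISRE and 5 the NF-κB consensus. The shares among all promoters of the table show how common such runs of letters are: 4.51% of 32851 held the NF-κB consensus and 3.44% the ISRE. A match is a run of letters and not a measured binding site.

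**Figure D3:**
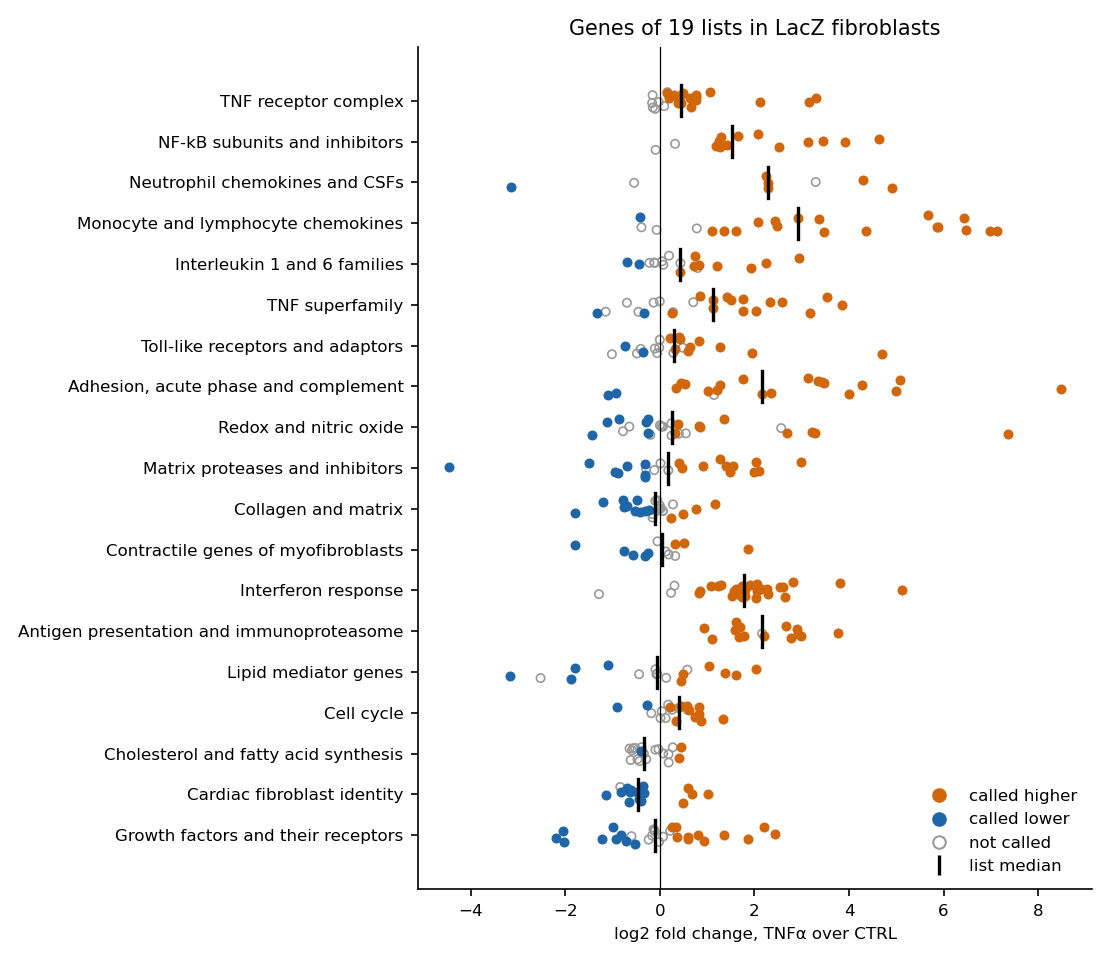
Log2 fold change of TNFα over CTRL (horizontal axis) of each tested gene of the 19 functional gene lists (rows); filled orange and blue points were called higher and lower, open grey points were not called, and black bars mark list medians. The NF-κB, chemokine, adhesion, interferon and antigen presentation lists lie mostly to the right of 0, with 12 of 14 NF-κB genes and 27 of 30 interferon genes called higher, and the collagen and fibroblast identity lists mostly at or to the left of it.

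Chemokines that attract monocytes and lymphocytes were among the genes with the largest increases. Of 21, 17 were higher and 1 lower (14 and 0 unpaired), with a median of 2.91. Ccl2, the main monocyte attractant, was at 9.22, 25.7, 8.25 and 18.5 CPM in CTRL and 2069, 2230.3, 1747 and 1831 CPM with TNFα. All 4 TNFα libraries lay within a narrow range far above CTRL, and the change was 7.12 ± 0.26 (adjusted p = 2.81e-07), or 139.5-fold. Ccl7, a neighbour of Ccl2 with the same receptor, rose from 15.3 ± 7.61 to 720.1 ± 66.2 CPM (SD, n = 4; 5.66 ± 0.25, adjusted p = 7.1e-07). Ccl5, a T-cell attractant, rose from 0.246, 2.31, 1.69 and 12.4 to 168, 388, 222 and 289.6 CPM (6.46 ± 0.53, adjusted p = 2.16e-05). Its CTRL level was highest in replicate 4 and lowest in replicate 1. Cxcl10 and Cxcl9, which are ligands of CXCR3, rose by 5.89 ± 0.22 (adjusted p = 2.87e-07) and 6.44 ± 0.19 (adjusted p = 1.62e-08). Cxcl10 was at 0.357, 6.48, 4.6 and 11.9 CPM in CTRL and 56.3, 482, 285 and 428 CPM with TNFα, so that replicate 1 was the lowest in both groups. Cx3cl1, a membrane-bound chemokine, and Cxcl16 rose by 2.08 ± 0.09 (adjusted p = 5.34e-07) and 2.91 ± 0.06 (adjusted p = 1.23e-08). Ccl20, which attracts CCR6-bearing lymphocytes, was at most 0.203 CPM in CTRL and at 6.58, 1.64, 8.21 and 11 CPM with TNFα. The lower member was Cxcl12, the stromal ligand of CXCR4, at 2814, 3705, 2743 and 2203 CPM in CTRL and 2505, 1977, 2166 and 1808 CPM with TNFα (-0.42 ± 0.10, adjusted p = 0.00981, 0.0809 unpaired), with overlapping groups and a fall in 4 of 4 pairs, and was not called in a single fit of all 40 libraries (adjusted p = 0.106). Ccl2 and Ccl12 are close paralogs, and reads may have been shared between them.

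Of 8 neutrophil chemokines and colony-stimulating factors, 5 were higher and 1 lower (6 and 1 unpaired). Csf1, the growth factor of macrophages, was at 458, 349, 392 and 449 CPM in CTRL and 2313, 1619.9, 2054 and 2130.0 CPM with TNFα (2.3 ± 0.05, adjusted p = 1.24e-08), with separate groups. Cxcl1, a neutrophil attractant, rose from 7.39, 8.19, 6.88 and 7.18 to 42.3, 30.7, 35.5 and 33.4 CPM (2.26 ± 0.10, adjusted p = 6.71e-07), and Cxcl5 by 2.29 ± 0.14 (adjusted p = 4.06e-06). The granulocyte factor Csf3 was at 0 CPM in 3 of 4 CTRL and 2 of 4 TNFα libraries, and no change was detectable at this depth. Cxcl15 fell by 3.13 ± 0.28 (adjusted p = 2.03e-05) from a CTRL level of 0.697 to 2.59 CPM.

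Cytokines of the interleukin 1 and 6 families changed less uniformly. Of 18 tested, 8 were higher and 2 lower (6 and 2 unpaired). Il6 itself was low, at 3.04, 1.78, 2.15 and 2.79 CPM in CTRL and 16.5, 18.3, 19.5 and 19.7 CPM with TNFα (2.94 ± 0.14, adjusted p = 1.13e-06). Lif, a related cytokine, rose by 1.94 ± 0.08 (adjusted p = 5.9e-07), and the receptor genes Lifr and Osmr rose by 1.22 ± 0.09 (adjusted p = 9.38e-06) and 0.75 ± 0.06 (adjusted p = 1.7e-05). Il6st, the signalling subunit gp130 that these receptors share, rose from 2277, 1962, 1759 and 1578 to 3425, 3106, 3053 and 2781 CPM (0.72 ± 0.05, adjusted p = 7.09e-06). In contrast, Il11ra1, the receptor of interleukin 11, fell from 153, 119, 148 and 128 to 93.4, 69.5, 95.6 and 82.6 CPM (-0.69 ± 0.05, adjusted p = 1.14e-05), and Il1r1, the signalling receptor of IL-1β, from 235, 175, 203 and 199.5 to 177, 153, 133 and 135 CPM (-0.44 ± 0.08, adjusted p = 0.00163). Il1b was at no more than 0.0339 CPM in any of the 8 libraries. Il1rl1, the IL-33 receptor, rose in 4 of 4 pairs by 2.25 ± 0.09 (adjusted p = 4.77e-07, 0.524 unpaired), and the groups overlapped, with replicate 2 far above the others in both.

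Within the TNF superfamily, 14 of 23 genes were higher and 2 lower (13 and 1 unpaired), with a median of 1.12. For the ligand Tnf no change was detectable at this depth, at 0.781, 0.132, 0.0887 and 0.436 CPM in CTRL and 0.339, 0.349, 0.193 and 0.379 CPM with TNFα. Fas, a death receptor, rose from 42.1, 28.1, 36.6 and 39.4 to 206, 238, 226 and 199 CPM (2.58 ± 0.13, adjusted p = 1.18e-06). Tnfsf13b, the B-cell factor BAFF, rose by 1.76 ± 0.10 (adjusted p = 2.18e-06), Tnfsf10, which encodes TRAIL, by 2.33 ± 0.17 (adjusted p = 1.05e-05) and Tnfrsf9, a costimulatory receptor, by 3.17 ± 0.25 (adjusted p = 1.7e-05). Tnfsf18, the ligand GITRL, rose from 0.246, 0.264, 0.798 and 0.901 to 4.85, 3.04, 7.71 and 10.2 CPM (3.53 ± 0.16, adjusted p = 9.05e-07), and Cd40, a receptor for T-cell help, by 2.04 ± 0.12 (adjusted p = 3.62e-06). Tnfrsf14, the receptor HVEM, varied little within groups and rose from 7.08, 5.93, 5.86 and 7.79 to 17.9, 19.8, 19 and 18.4 CPM (1.51 ± 0.10, adjusted p = 6.94e-06). Tnfrsf21, the death receptor DR6, fell from 3.37, 10.6, 6.42 and 6.28 to 1.9, 2.27, 2.87 and 3.18 CPM (-1.33 ± 0.20, adjusted p = 0.000773). The call for Tnfsf12, the gene of TWEAK, at -0.34 ± 0.07, depended on pairing (adjusted p = 0.00573, 0.0696 unpaired).

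With Tlr2 included, 10 of 22 tested genes of the Toll-like receptor list were higher and 2 lower (6 and 2 unpaired). Tlr3, the receptor for double-stranded RNA, rose from 16.5, 14, 23.6 and 31 to 65, 67.4, 82.6 and 107 CPM (1.95 ± 0.09, adjusted p = 8.78e-07), and Tlr4, the lipopolysaccharide receptor, from 46.8, 43.3, 35.3 and 31.6 to 68.2, 49.98, 56.4 and 62.3 CPM (0.60 ± 0.10, adjusted p = 0.00178). The groups of both genes were separate. The adaptor gene Myd88 rose by 0.83 ± 0.06 (adjusted p = 7.64e-06), and Irak3, an inhibitor of this pathway, by 0.64 ± 0.08 (adjusted p = 0.000379). Tlr6, which pairs with TLR2, fell by 0.73 ± 0.13 (adjusted p = 0.00255) and Ticam1, the adaptor of TLR3, fell by 0.36 ± 0.07 (adjusted p = 0.00346).

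Adhesion molecules, acute phase proteins and complement rose in 18 of 21 tested genes and fell in 2 (15 and 2 unpaired), with a median of 2.16. Vcam1, an adhesion molecule for monocytes and lymphocytes, had the largest gain in mean CPM of all genes, from 698, 717, 692 and 629.8 CPM in CTRL to 6402, 5089.6, 6741 and 5934 CPM with TNFα. The groups were separate, and the change was 3.14 ± 0.07 (adjusted p = 2.47e-08). Icam1 rose from 87.9, 51.7, 98.1 and 137 to 842, 743, 1005 and 1039 CPM (3.34 ± 0.13, adjusted p = 4.25e-07). Selp, the gene of P-selectin, rose from 5.78, 3.01, 6.53 and 4.59 to 319, 61.3, 181 and 169 CPM (5.07 ± 0.19, adjusted p = 3.46e-07), with replicate 2 lowest in both groups. Saa3, an acute phase serum amyloid, was at 2.05, 7.2, 1.37 and 4.62 CPM in CTRL and 799, 2290.2, 1072 and 949 CPM with TNFα (8.49 ± 0.25, adjusted p = 1.14e-07), highest in replicate 2 of both groups. Ptx3, a soluble pattern recognition protein, was lowest in replicate 2 of both groups and rose from 52.3, 20.4, 41.7 and 51.7 to 1732, 647, 1311 and 1617 CPM, with a change of 5.0 ± 0.05 (adjusted p = 3.07e-10) that was near the same size in each pair. The central complement gene C3 rose from 784, 535, 381 and 507 to 6423, 6984, 5006 and 4795 CPM (3.43 ± 0.12, adjusted p = 2.18e-07), and Cfb, its partner in the alternative pathway, by 4.27 ± 0.12 (adjusted p = 9.61e-08). Among the lower genes was Cd59a, which blocks the membrane attack complex and fell by 0.93 ± 0.07 (adjusted p = 1.05e-05).

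Interferon-stimulated genes and genes of antigen presentation rose with few exceptions. Of 30 genes of the interferon list, 27 were higher and 0 lower by edgeR (0 also at an unadjusted p under 0.05 and by DESeq2), with a median of 1.78, and 18 were called higher by the unpaired fit. The CTRL libraries differed among themselves in these genes. Ifit1, an RNA-binding antiviral protein, was at 40.1, 223, 299 and 486 CPM in CTRL and 497, 743, 672 and 914 CPM with TNFα (1.81 ± 0.38, adjusted p = 0.00498, 0.104 unpaired). Replicate 1 was lowest and replicate 4 highest in both groups, and the lowest TNFα library was only just above the highest CTRL library. The summed level of the list showed the same order, with 947, 2417, 2779 and 4251 CPM in CTRL and 6776, 10406, 9222 and 11048 CPM with TNFα. Among genes known as targets of interferon γ, the guanylate-binding protein gene Gbp2 rose from 57.2, 127, 123 and 174 to 1253, 2088, 1506 and 1530.4 CPM (3.81 ± 0.19, adjusted p = 1.46e-06), Gbp5 from 4.42, 9.27, 15.6 and 22.5 to 303, 522, 418 and 381 CPM (5.12 ± 0.31, adjusted p = 4.1e-06), and Irf1, the transcription factor that drives many of them, from 42.9, 47.3, 49.8 and 51 to 288, 407, 244 and 208 CPM (2.55 ± 0.16, adjusted p = 4.78e-06). Irf7 rose by 2.05 ± 0.29 (adjusted p = 0.000573, 0.0654 unpaired) and Isg15 by 1.74 ± 0.33 (adjusted p = 0.00315, 0.108 unpaired). The 3 genes without a call were Irf9 (0.24 ± 0.14, adjusted p = 0.228), Socs1 (0.31 ± 0.13, adjusted p = 0.105) and Ifnb1, the interferon β gene, which was at no more than 0.106 CPM in any library.

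For antigen presentation and the immunoproteasome, 14 of 15 genes were higher in the paired and the unpaired fit of edgeR and 0 lower (0 also at an unadjusted p under 0.05 and by DESeq2), with a median of 2.16. H2-K1, a class I heavy chain, rose from 123, 179, 308 and 373 to 1615, 1572, 1959.8 and 1963 CPM (2.98 ± 0.19, adjusted p = 5.14e-06), and Psmb8, a catalytic subunit of the immunoproteasome, from 10.6, 19.5, 29 and 41.5 to 147, 185, 166 and 179 CPM (2.89 ± 0.24, adjusted p = 2.28e-05). In both genes CTRL was lowest in replicate 1 and highest in replicate 4. The peptide transporter genes Tap1 and Tap2 rose by 1.61 ± 0.10 (adjusted p = 3.75e-06) and 1.78 ± 0.10 (adjusted p = 2.07e-06), Tapbp by 2.2 ± 0.10 (adjusted p = 9.01e-07), and Nlrc5, the class I transactivator, by 2.78 ± 0.16 (adjusted p = 2.34e-06). The class II transactivator Ciita was not called, at no more than 0.304 CPM in any library, and Cd74, the class II invariant chain, rose from 0.067, 0.11, 0.195 and 0.407 to 2.58, 4.37, 1.38 and 2.08 CPM (3.76 ± 0.39, adjusted p = 9.55e-05). Class I heavy chains and guanylate-binding proteins are multigene families whose reads may have been divided among copies.

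**Figure D4:**
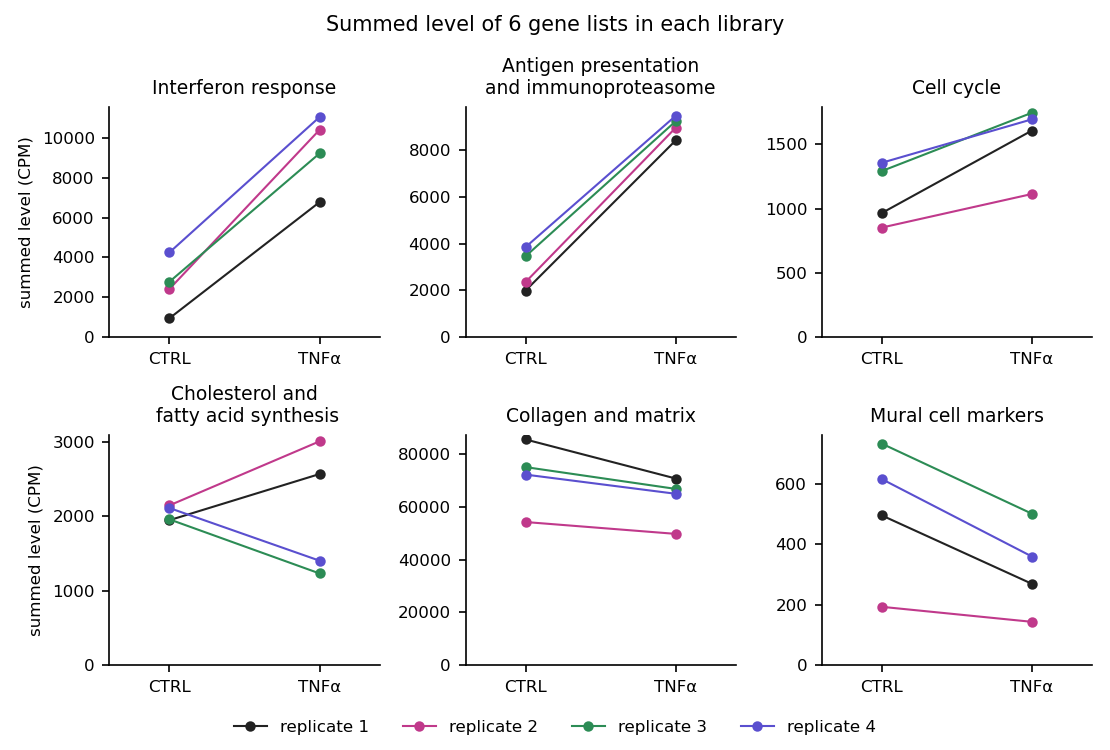
Summed level in CPM (vertical axes, starting at 0) of 6 gene lists in the CTRL and TNFα libraries of LacZ fibroblasts, with lines joining the libraries of a replicate number. The interferon sum was 947 CPM in CTRL replicate 1 and 4251 CPM in CTRL replicate 4, and the cholesterol sum rose in replicates 1 and 2 and fell in replicates 3 and 4.

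Redox and nitric oxide genes changed in both directions, 9 higher and 6 lower of 26 (8 and 3 unpaired). Nos2, the inducible nitric oxide synthase, was at 0, 0.22, 0.0887 and 0.0581 CPM in CTRL and 4.44, 25.2, 20.5 and 10.7 CPM with TNFα (7.36 ± 0.20, adjusted p = 4.15e-09), and Gch1, which makes its cofactor tetrahydrobiopterin, rose by 3.28 ± 0.21 (adjusted p = 5.65e-06). The arginine transporter gene Slc7a2 rose from 251, 98.1, 152 and 160.3 to 468, 287, 432 and 437 CPM (1.35 ± 0.10, adjusted p = 1.34e-05). Of the NADPH oxidase genes, Cybb and Cyba, which form the NOX2 membrane complex, rose by 2.7 ± 0.22 (adjusted p = 2.08e-05) and 0.84 ± 0.08 (adjusted p = 4.47e-05), whereas Nox4 fell from 21.6, 15.7, 20.2 and 18 to 8.27, 11.7, 10.8 and 10.9 CPM (-0.85 ± 0.14, adjusted p = 0.00119). The cytosolic dismutase Sod1 fell by 0.30 ± 0.05 (adjusted p = 0.00139) while Sod2 rose, and the extracellular peroxidase Gpx3 fell from 287, 242, 347 and 400.3 to 91.4, 142, 166 and 197 CPM (-1.12 ± 0.12, adjusted p = 0.000114).

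In the list of lipid mediator genes, 6 of 17 tested were higher and 4 lower (3 and 4 unpaired). Ptgs2, the gene of cyclooxygenase 2, was at 6.83, 20.4, 8.93 and 9.27 CPM in CTRL and 12.5, 112, 24.3 and 24 CPM with TNFα (1.61 ± 0.22, adjusted p = 0.000435, 0.0631 unpaired), with the highest level of both groups in replicate 2. Pla2g4a, the cytosolic phospholipase that releases arachidonic acid, rose by 1.05 ± 0.07 (adjusted p = 5.95e-06) in 4 of 4 pairs, also with replicate 2 highest. Ptges, the inducible prostaglandin E synthase, rose from 16.6, 40.9, 24.5 and 26.8 to 74.3, 184, 101 and 91.9 CPM (2.04 ± 0.08, adjusted p = 3.27e-07). Hpgd, which inactivates prostaglandins, fell by 1.87 ± 0.24 (adjusted p = 0.00032), and Ephx2, the soluble epoxide hydrolase, fell from 18.6, 14.5, 24.6 and 17.9 to 8.04, 7.58, 11.3 and 8.3 CPM (-1.1 ± 0.08, adjusted p = 9.22e-06).

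Matrix genes fell more often than they rose. Of 25 collagen and matrix genes, 4 were higher and 10 lower, but the unpaired fit called 1 and 4, and the median was -0.09, close to that of all genes. Col3a1, the fibrillar collagen III chain, had the largest loss of mean CPM of all genes, from 25357, 13915, 22377 and 19409.8 CPM in CTRL to 14408, 8530.3, 12619 and 11784 CPM with TNFα. The fall was of similar size in the 4 pairs, although TNFα replicate 1 lay above CTRL replicate 2, and the change was -0.77 ± 0.04 (adjusted p = 2.03e-06). The collagen I genes did not pass the test, with 0.06 ± 0.05 for Col1a1 (adjusted p = 0.357) and -0.05 ± 0.06 for Col1a2 (adjusted p = 0.54, and 0.0082 without replicate 1). Lum, a small leucine-rich proteoglycan, fell from 609, 261, 525 and 543 to 228, 129.7, 246 and 228 CPM (-1.19 ± 0.07, adjusted p = 3.53e-06) and Comp, a cartilage matrix protein, fell by 1.8 ± 0.09 (adjusted p = 1.55e-06). Fbn1, the microfibril protein fibrillin 1, rose from 1595, 1237, 1261 and 1391 to 2338, 2548, 2427 and 1964 CPM (0.76 ± 0.09, adjusted p = 0.000224), and Col12a1 rose by 1.17 ± 0.08 (adjusted p = 8.32e-06, 0.0587 unpaired).

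Among 23 matrix proteases and inhibitors, 11 were higher and 8 lower (5 and 4 unpaired). Mmp3, stromelysin 1, rose from 990.3, 1469.7, 1328 and 1135 to 2561, 2866, 3087 and 3276 CPM (1.27 ± 0.08, adjusted p = 4.36e-06), and Mmp9, gelatinase B, from 1.54, 1.76, 2.84 and 3.28 to 16.1, 22.1, 19 and 15.7 CPM (2.98 ± 0.20, adjusted p = 6.02e-06). By contrast Mmp2, gelatinase A, fell from 2153, 2011, 1882 and 1787 to 1058, 1121, 957 and 933 CPM (-0.94 ± 0.05, adjusted p = 1.52e-06), and Mmp11 fell by 1.5 ± 0.08 (adjusted p = 1.62e-06). The groups of these 4 proteases were separate. Adamts9, an aggrecanase, rose by 2.03 ± 0.10 (adjusted p = 1.13e-06). Mmp13, collagenase 3, rose from 0.179, 3.56, 2.31 and 1.57 to 0.712, 15.8, 9.18 and 7.16 CPM (2.1 ± 0.11, adjusted p = 1.52e-06, 0.0929 unpaired), in 4 of 4 pairs but from unequal levels, with replicate 1 lowest in both groups. The aggrecanase gene Adamts5 rose by 0.92 ± 0.06 (adjusted p = 7.24e-06, 0.063 unpaired). Of the tissue inhibitors of metalloproteinases, Timp1 rose from 600.1, 401, 601 and 643 to 744, 650.2, 821 and 876 CPM (0.48 ± 0.07, adjusted p = 0.000503, 0.0646 unpaired) and Timp2 fell by 0.31 ± 0.04 (adjusted p = 0.000524, 0.171 unpaired). Timp4 was at no more than 0.461 CPM in CTRL and at 0 in 3 of 4 TNFα libraries. Plat, the tissue plasminogen activator, fell from 178, 191, 167 and 137 to 116, 94.2, 108 and 95.6 CPM (-0.69 ± 0.08, adjusted p = 0.000128), with separate groups. Timp3 fell in the 4 pairs by near-constant amounts, with a change of -0.89 ± 0.04 (adjusted p = 1.34e-06, 0.291 unpaired), but its CTRL level was 537 CPM in replicate 2 and 1470.3 to 2912 CPM in the others.

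Contractile genes of myofibroblasts were called in both directions. Of 12, 3 were higher and 5 lower (1 and 1 unpaired), with 3 lower without replicate 1 or without replicate 3. A single edgeR fit of all 40 libraries called 0 lower (2 at an unadjusted p under 0.05), and DESeq2 on the 8 libraries called 5. Their summed level was 1922, 2420.1, 1673 and 1525 CPM in CTRL and 2996, 2943, 2363 and 2337 CPM with TNFα, higher with TNFα in each of the 4 pairs. Acta2, which encodes α smooth muscle actin, was the gene that rose by more than 1, at 166, 265, 165 and 113 CPM in CTRL and 749, 809, 551 and 437 CPM with TNFα (1.87 ± 0.09, adjusted p = 8.66e-07), with separate groups. Tagln, which often rises with Acta2 in myofibroblasts, was at 158 ± 41 and 151 ± 32 CPM (SD, n = 4; -0.05 ± 0.05, adjusted p = 0.56), and Myh11, the smooth muscle myosin, fell by 1.8 ± 0.21 (adjusted p = 0.000175). Of 16 genes of cardiac fibroblast identity, 4 were higher and 11 lower, and 1 and 1 unpaired. Dpt, dermatopontin, was at 1285, 486, 862 and 661 CPM in CTRL and 612, 188, 413 and 312 CPM with TNFα (-1.14 ± 0.06, adjusted p = 1.47e-06, 0.0664 unpaired), and Cd34 fell by 0.82 ± 0.05 (adjusted p = 6.19e-06, 0.0953 unpaired). The cardiac transcription factor genes Tbx20, Gata4 and Gata6 fell, with changes of -0.61 ± 0.08 (adjusted p = 0.000315, 0.277 unpaired), -0.39 ± 0.06 (adjusted p = 0.000689, 0.315 unpaired) and -0.49 ± 0.06 (adjusted p = 0.000254, 0.111 unpaired), each in 4 of 4 pairs. Pdgfra, the PDGF receptor α, rose from 993, 1884, 978 and 1033 to 1693, 2537, 1757 and 1602 CPM (0.67 ± 0.06, adjusted p = 4.9e-05, 0.0768 unpaired).

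Growth factors and their receptors moved in both directions, 11 higher and 9 lower of 29 (5 and 5 unpaired). Vegfc, a lymphatic growth factor, rose from 31.1, 18.6, 27.4 and 25.8 to 131, 140.4, 139 and 140.3 CPM (2.44 ± 0.12, adjusted p = 1.44e-06), Bmp2 from 6.41, 20.4, 10.4 and 9.21 to 33.9, 98.5, 50.7 and 31.4 CPM (2.2 ± 0.10, adjusted p = 9e-07) and Ereg, an EGF receptor ligand, by 1.87 ± 0.08 (adjusted p = 7.42e-07). Igf1 fell from 66.8, 62.6, 47.1 and 60.02 to 18.1, 8.39, 14.5 and 17 CPM (-2.05 ± 0.16, adjusted p = 1.88e-05). Wnt5a fell by 1.21 ± 0.08 (adjusted p = 4.59e-06), Fgf2 fell by 0.82 ± 0.09 (adjusted p = 0.000162) and Tgfb3 fell by 1.00 ± 0.06 (adjusted p = 3.79e-06), whereas Tgfb1 rose by 0.60 ± 0.08 (adjusted p = 0.000281). Igfbp4 and Fgf10, with changes of -2.19 ± 0.25 (adjusted p = 0.000155, 0.169 unpaired) and -2.03 ± 0.18 (adjusted p = 4.02e-05, 0.24 unpaired), were highest in replicate 2 of both groups.

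Cell cycle genes were called higher in 11 of 22 and lower in 2, but the unpaired fit called 2 and 1, and without replicate 3 the paired fit called 7 higher. The level of these genes differed between replicate numbers. Mki67, the proliferation antigen, was at 18.5, 13.1, 50.6 and 65.6 CPM in CTRL and 52, 18.2, 96.6 and 84.2 CPM with TNFα, higher in 4 of 4 pairs (0.82 ± 0.16, adjusted p = 0.00335, 0.408 unpaired) with overlapping groups. Ccnd1, which encodes cyclin D1, rose from 162, 141, 356 and 339 to 656, 381, 707 and 649.8 CPM (1.34 ± 0.16, adjusted p = 0.000195) with separate groups. The replication factor Mcm3 rose by 0.82 ± 0.15 (adjusted p = 0.00257), and the cell cycle inhibitor Cdkn1b fell from 129, 155, 125 and 119 to 63.1, 77.6, 69.2 and 69.5 CPM (-0.91 ± 0.06, adjusted p = 5.23e-06).

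Genes of cholesterol and fatty acid synthesis went in different directions in different pairs. Of 19, 2 were called higher and 1 lower (2 and 0 unpaired), and the number lower was 2 without replicate 2 and 0 without replicate 3 or without replicate 4. Sqle, squalene epoxidase, was at 50.7, 62, 50.5 and 56.8 CPM in CTRL and 55.4, 96.3, 11.3 and 20.4 CPM with TNFα. It was above its CTRL in replicates 1 and 2 and far below it in replicates 3 and 4, and the mean change was -0.64 ± 0.41 (adjusted p = 0.283). Hmgcs1, the cytosolic HMG-CoA synthase, was at 112, 136, 119.9 and 136 CPM in CTRL and 145, 203, 51.8 and 61.3 CPM with TNFα, in the same order. Over the list, the sums were 1945, 2144, 1957 and 2109 CPM in CTRL and 2566, 3005, 1229.8 and 1401 CPM with TNFα. The CTRL libraries were alike, and the TNFα libraries of replicates 1 and 2 lay above them and those of replicates 3 and 4 below.

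Across all genes that averaged 1 CPM or more, with separate groups and the same direction in 4 of 4 pairs, the 10 largest log2 increases were mostly those of genes close to 0 CPM in CTRL. Acod1, which makes itaconate, was at no more than 0.261 CPM in CTRL and at 30.8, 107, 63.7 and 65.8 CPM with TNFα (9.59 ± 0.24, adjusted p = 7.23e-09). Madcam1, a mucosal addressin, was at no more than 0.0872 CPM in CTRL and at 11.3, 49.4, 10.1 and 11.8 CPM with TNFα (8.94 ± 0.26, adjusted p = 3.07e-10). Ubd, a ubiquitin-like modifier, and Apol11b rose by 6.97 ± 0.25 and 8.19 ± 0.24, and the pseudogene Art2a-ps, at 0 counts in the 4 CTRL libraries, was at 2.17, 5.28, 4.53 and 3.67 CPM with TNFα. Ccl2, Ccl20, Saa3 and Nos2, described above, and Gm11218 complete the 10.

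Among the 10 largest log2 decreases under the same conditions were those of Inmt, Rhov, Wnt4, Aox3, Cnmd, Fndc5, Ntrk2, Myoc and Gdf10. Inmt, a methyltransferase of indole amines, fell from 15.4, 22.6, 7.61 and 6.39 CPM to 0.136, 0.28, 0.0829 and 0.114 CPM (-6.38 ± 0.16, adjusted p = 9.26e-09). Wnt4 fell from 4.49, 11, 10.2 and 8.4 to 0.203, 0.175, 0.332 and 0.265 CPM (-5.09 ± 0.18, adjusted p = 2.18e-07). Gdf10, a member of the TGFβ superfamily, fell by 4.47 ± 0.17 (adjusted p = 2.09e-07).

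By loss of mean CPM, Col3a1 was followed by Gsn, the actin-severing protein gelsolin, at 7745, 2696, 4627 and 4179 CPM in CTRL and 2188, 775, 1159 and 968 CPM with TNFα (-1.93 ± 0.06, adjusted p = 1.73e-07). Ptn, the growth factor pleiotrophin, fell from 1536, 1041, 902 and 960.2 to 150.3, 77.8, 92.7 and 83.5 CPM (-3.47 ± 0.08, adjusted p = 1.67e-08), or 11.1-fold, and Mgp, matrix Gla protein, from 1809, 1483, 1528 and 1041 to 385, 237, 400.1 and 367 CPM (-2.08 ± 0.15, adjusted p = 1.04e-05). Each of these 3 genes had separate groups. Thbs2 and Sned1, both of the extracellular matrix, fell, with changes of -1.56 ± 0.14 (adjusted p = 3.21e-05) and -2.32 ± 0.11 (adjusted p = 8.39e-07).

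The TNFα libraries were also compared directly with those of the 4 LacZ cultures given IL-1β, a comparison with no CTRL library in it. Of the 25210 genes, 2869 (11.4%) were higher with TNFα than with IL-1β and 2818 (11.2%) lower, and 1243 and 1254 unpaired. Interferon and antigen presentation genes were higher with TNFα in 27 of 30 (15 unpaired) and 14 of 15 cases, and lower in 0, with 0 also at an unadjusted p under 0.05 and by DESeq2. Gbp2 was at 1594 ± 352 CPM with TNFα against 447 ± 120.0 CPM with IL-1β (SD, n = 4; difference 1.85 ± 0.11, adjusted p = 3.92e-06), and Irf1 differed by 2.07 ± 0.11 (adjusted p = 2.82e-06). Of 14 NF-κB subunits and inhibitors, 11 were higher with TNFα and 1 lower (9 and 1 unpaired), with a difference of 2.47 ± 0.06 for Nfkbie (adjusted p = 1.11e-07) and 1.12 ± 0.08 for Tnfaip3 (adjusted p = 1.36e-05). The lower gene was Nfkbiz, with a difference of -2.57 ± 0.07 (adjusted p = 1.11e-07).

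The neutrophil genes were lower with TNFα than with IL-1β in 6 of 8 cases and higher in 1 (4 and 0 unpaired). Cxcl1 was at 35.5 ± 4.93 CPM with TNFα against 1419 ± 479 CPM with IL-1β (-5.27 ± 0.14, adjusted p = 1.11e-07), and Cxcl5 differed by -4.97 ± 0.34 (adjusted p = 8.7e-06). Csf1 was the gene of the list that was higher with TNFα (0.57 ± 0.08, adjusted p = 0.000626, 0.073 unpaired). Il6 was lower with TNFα, with a difference of -4.03 ± 0.19 (adjusted p = 1.16e-06), and Lcn2, the siderophore-binding lipocalin 2, was at 12.5 ± 4.27 CPM with TNFα against 2995 ± 833 CPM with IL-1β (-7.88 ± 0.33, adjusted p = 6.49e-07). Nos2 was likewise lower with TNFα (-4.66 ± 0.27, adjusted p = 3.92e-06). Ccl2 levels were close, with a difference of 0.17 ± 0.12 that did not pass the test (adjusted p = 0.432) and was -0.02 without replicate 2. Tlr2 was higher with TNFα by 0.90 ± 0.08 (adjusted p = 5.49e-05), and Sod2 was lower, with a difference of -0.96 ± 0.09 (adjusted p = 8.12e-05). Cholesterol genes were lower with TNFα in 18 of 19 cases and cell cycle genes higher in 17 of 22, with 6 and 4 such calls unpaired.

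Whether the TNFα effect depended on TAK1 was tested as the interaction of ligand and virus over 16 libraries, with the iCre cultures as the TAK1-deleted arm. The TNFα effect in LacZ cells exceeded that in iCre cells for 3030 genes (12%) and was below it for 3394 (13.5%), and for 1985 and 2166 unpaired. Without replicate 3 the counts were 1990 and 1934, and without replicate 4 the second was 2079. For Tlr2 the TNFα effect was larger in LacZ cells by 3.72 ± 0.32 (adjusted p = 4.07e-06), with 11 ± 2.18 CPM in iCre cells without ligand and 22.4 ± 13.7 CPM in iCre cells with TNFα (SD, n = 4). For Sod2 it was larger by 1.76 ± 0.21 (adjusted p = 3.98e-05). After a correction for the GC content of each gene the differences were 3.81 and 1.5. Map3k7 counts, which also cover the exons outside the deleted part, were at 127 ± 4.27 CPM in iCre cells without ligand and 144 ± 12.8 CPM with TNFα, against 153 ± 6.51 and 239 ± 19.9 CPM in LacZ cells, and do not measure the loss of the floxed exon.

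By list, the effect was larger in LacZ cells for 18 of 30 interferon genes (21 after GC correction), 13 of 15 antigen presentation genes, 15 of 21 adhesion, acute phase and complement genes (13 after GC correction) and 8 of 14 NF-κB genes (12 after GC correction), and smaller for 0 in each of them (0 also at an unadjusted p under 0.05 and by DESeq2). Without replicate 3 the interferon count was 10. Unpaired counts by list are not given here, and over all genes the unpaired interaction fit called 1985 and 2166. Ptx3 differed by 4.58 ± 0.42 (adjusted p = 7.43e-06), Gbp2 by 4.0 ± 0.51 (adjusted p = 7.77e-05) and Birc2 by 1.82 ± 0.25 (adjusted p = 0.000109). Nfkbia, by contrast, differed by a smaller 0.74 ± 0.18 (adjusted p = 0.00803), and for Il6 the difference of -0.12 ± 0.33 did not pass the test (adjusted p = 0.875) and was 0.11 without replicate 1 and 0.12 without replicate 3. Cell cycle genes went the other way, with an effect below that of iCre cells in 19 of 22 (18 after GC correction) and above it in 2. Mki67 was at 21.2 ± 12.3 CPM in iCre cells without ligand and 173 ± 29.7 CPM with TNFα, and the difference between the effects was -2.53 ± 0.52 (adjusted p = 0.00246, 0.054 unpaired). For the cholesterol list 0 of 19 genes passed the edgeR interaction test in either direction, 0 had an unadjusted p under 0.05, and DESeq2 called 0.

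**Figure D5:**
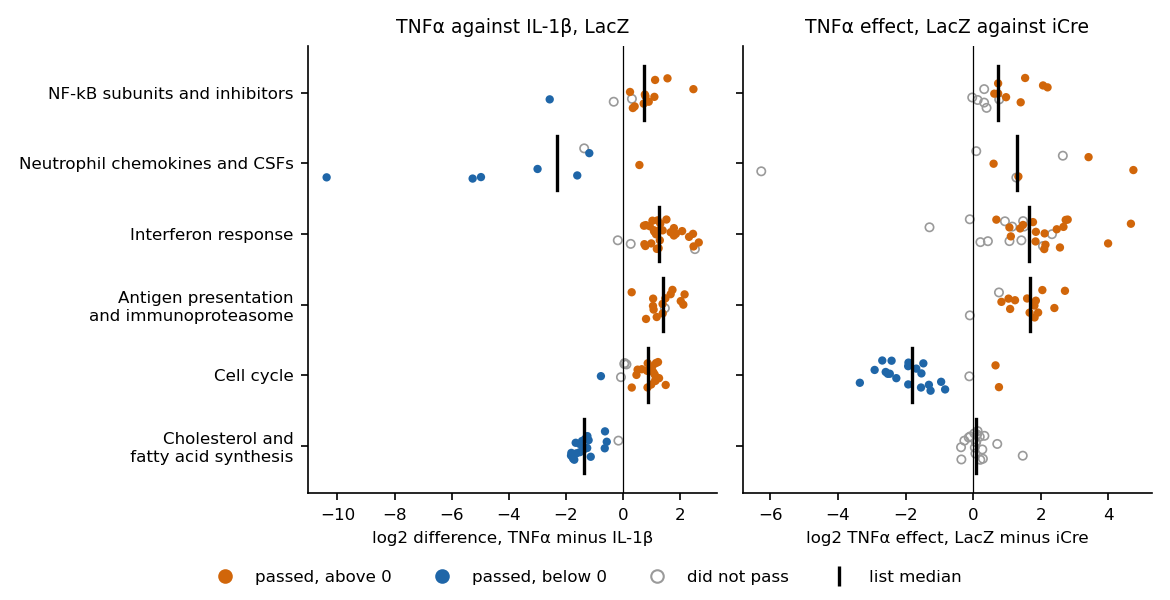
Log2 difference between TNFα and IL-1β in LacZ fibroblasts (left, horizontal axis) and between the TNFα effects of LacZ and iCre fibroblasts (right, horizontal axis) for genes of 6 lists (rows); filled points passed the test at an adjusted p of at most 0.05, open points did not, and black bars mark list medians. The medians of the interferon and antigen presentation genes lie to the right of 0 in both panels. That of the neutrophil chemokines and colony-stimulating factors lies to the left in the left panel. The median of the cell cycle genes lies to the right in the left panel and to the left in the right panel. Of the genes that passed the test, 0 to 2 of each of these lists lie on the other side in each panel named.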

How the data were processed

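Poly-A RNA from LacZ and iCre fibroblasts was sequenced in 40 libraries with total counts of 25360947 to 66160732. Per the labels and the study's methods, the authors checked reads with FastQC (version 0.10.1 in the labels, another in the methods), aligned them to mm10 with STAR 2.6 and counted reads per gene with HTSeq 0.10.0, and deposited raw counts without normalization. The strand setting and annotation release are not given in the sources used here, so reads of overlapping and antisense genes may be shared.

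Groups were taken from the sample titles. Genes with at least 10 counts over the 40 libraries were kept. edgeR 4.0.16 (R 4.3.3) was run with TMM scaling and the quasi-likelihood test, with replicate number as a block, and Benjamini-Hochberg adjustment covered the p-values of all 25210 genes (threshold 0.05). The comparison of TNFα with CTRL was defined as paired by replicate number. Deviations of same-numbered CTRL and TNFα libraries from their group means correlated at 0.63 to 0.81, against -0.53 to 0.41 for different numbers. These correlations were not computed for the IL-1β or iCre libraries, whose fits used the same block. The labels describe biological replicates but not what a number shares. The bias-adjusted dispersion of edgeR was chosen after the data had been seen. In simulated data the earlier version called more unchanged genes for TNFα against CTRL (72 against 13) and against IL-1β (49 against 5). For the interaction, simulated without replicate effects, the numbers were 8 and 6. Only 200 of 25210 genes were changed in each simulation, far fewer than were called here, so these rates need not carry over. The interaction of virus and ligand used 16 libraries. Motifs were searched in RefSeq promoters. The members and gene lists were chosen with earlier results of these data known. Genes named were list members, Tlr2 and Sod2, the 10 largest log2 changes in each direction among called genes averaging 1 CPM or more, with separate groups and 4 of 4 pairs alike, and the 10 largest gains and losses of mean CPM. Values of some of these genes are not reported here. Alternatives were no block, DESeq2 1.42.0, RLE scaling, other filters, all 40 libraries, GC correction and leaving out each number.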

Additional observations from a re-analysis of the deposited data

Results flagged for a closer look

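A library far from the other 3 of its group was found in 36 of the 348 groups examined (174 named genes, CTRL and TNFα, a gap to the nearest library, as a share of the range, above Dixon's 95% critical value). For independent, normally spread values chance puts about 1 in 20 groups past this limit. CPM of genes measured in the same libraries need not be so, and no chance rate is claimed for the 36 groups. In 28 of the 36 groups it was replicate 2 and in 4 replicate 1. The 36 include Csf3 in CTRL, Timp4 with TNFα and Il1b in both groups, at 0.110 CPM or less. There the other libraries of the group were at a single level, so any read gave a share of 1. These values near the floor do not show a library far from the others.

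In CTRL, replicate 2 was far above the others for Tnfrsf1b (78.6 CPM), Csf3 (0.110 CPM), Il1b (0.0220 CPM), Il1rl1 (161 CPM), Col12a1 (189 CPM), Pdgfra (1884 CPM), Fgf10 (27.6 CPM), Igfbp4 (1186 CPM), Aox3 (93.7 CPM) and Sned1 (1604 CPM). In CTRL, replicate 2 was far below the others for Cyba (63.8 CPM), Gata6 (87.2 CPM), Tbx20 (111 CPM) and Vim (2409 CPM). In TNFα, replicate 2 was far above the others for Il1rl1 (711 CPM), Tnfrsf9 (27.9 CPM), Cfb (91.3 CPM), Timp4 (0.0350 CPM), Ptgs2 (112 CPM), Pdgfra (2537 CPM), Fgf10 (8.32 CPM), Igfbp4 (545 CPM), Madcam1 (49.4 CPM), Ubd (27.8 CPM) and Aox3 (3.08 CPM). In TNFα, replicate 2 was far below the others for Cflar (128 CPM), Dcn (1591 CPM) and Lum (129.7 CPM). The other replicates stood apart for Tnip2 (CTRL replicate 1, 29.9 CPM), Ccl5 (CTRL replicate 4, 12.4 CPM), Il1b (TNFα replicate 1, 0.0339 CPM), Adamts9 (TNFα replicate 4, 91.1 CPM), Ciita (TNFα replicate 3, 0.304 CPM), Vegfc (TNFα replicate 1, 131 CPM), Kcnj8 (CTRL replicate 4, 2.82 CPM), Gdf10 (CTRL replicate 1, 1.88 CPM).

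The TNFα effect differed between LacZ and iCre fibroblasts by the interaction test of edgeR for Birc2 (1.82), Nfkbia (0.74), Tlr2 (3.72), Ptx3 (4.58), Sod2 (1.76), Gbp2 (3.995), Mki67 (-2.53), as log2 effect in LacZ minus that in iCre with adjusted p between 4.07e-06 and 0.00803.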

How the results depend on the processing

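The counts kept their size, within 1.5 times, under DESeq2 (4373 higher and 4061 lower), RLE scaling (4484 and 4417), a GC correction (4386 and 4579) and the earlier dispersion estimate (4330 and 4632), which was added after the data had been seen. Without the replicate block they were 2809 and 2811 for TNFα against CTRL, 1243 and 1254 against IL-1β, 1985 and 2166 for the interaction, and 31 for the lower members of all lists together. With a change of at least 1 on the log2 scale they were 1084 and 1555, and 19 for the lower members of the lists.

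Leaving out each replicate number gave 3321 to 4080 genes higher and 3411 to 4195 lower with TNFα, 1920 to 2773 and 1917 to 2483 against IL-1β, and 1990 to 3260 and 1934 to 3195 for the interaction. For the interaction, the lowest counts came without replicate 3, and without replicate 4 the lower count was 2079. List members higher were 187 to 201 and lower 58 to 70. Without the block, 29 called values of named genes were no longer past the threshold.

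The values that changed sign were of genes that did not pass the test. Over the fits that left out each number, the log2 fold change ranged from -1.38 to 2.15 for Csf3, -1.63 to 2.14 for Il1b, -2.15 to 0.37 for Ifnb1, -0.47 to 0.58 for Tnf, -0.10 to 0.090 for Ptprc, -0.11 to 0.0082 for Col1a2 and -0.069 to 0.000499 for Tagln. The difference of TNFα from IL-1β ranged from -0.018 to 0.25 for Ccl2, and the interaction from -0.37 to 0.12 for Il6, with 0.11 without replicate 1. Ptprc was also 0.018 without the block, 1.02e-05 by DESeq2, 0.011 with RLE scaling, 0.0022 with the filterByExpr filter, 0.011 with the GC correction and 0.0019 without replicate 2, and Tnf 0.22 by DESeq2 and 0.081 with the earlier dispersion. Dcn was called without replicate 2. Nfkbiz was called without replicate 2, by DESeq2, with RLE scaling, with the filterByExpr filter and with the earlier dispersion. Vim was not called without replicate 3 or 4, without the block or with the filterByExpr filter. With all 40 libraries in a single fit, Cxcl12, Timp1, Myh11, Tcf21 and Vim were not called, and the lower calls were 6 in place of 10 for collagen and matrix, 3 in place of 5 for fibroblast markers, 1 in place of 2 for endothelial markers and for the cell cycle, and the higher calls 2 in place of 4 for fibroblast identity. The causes were not tested. Genes at a few counts per library have little precision.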

Other observations

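Among the 10 genes with the largest log2 decreases, Rhov, a small GTPase, was at 1.94, 0.439, 4.79 and 4.42 CPM in CTRL and 0, 0.035, 0.0276 and 0.189 CPM with TNFα (-5.61 ± 0.41, adjusted p = 2.86e-06). Fndc5, the precursor of irisin, was at 2.23, 4.39, 2.96 and 3.75 and 0.136, 0.175, 0.0553 and 0.0758 CPM (-4.89 ± 0.26, adjusted p = 7.1e-07). Ntrk2, the receptor of brain-derived neurotrophic factor, was at 1.45, 2.66, 5.23 and 3.72 and 0.0678, 0.175, 0.111 and 0.152 CPM (-4.72 ± 0.24, adjusted p = 4.25e-07), and Myoc, the gene of myocilin, at 2.23, 2.88, 1.49 and 1.39 and 0.136, 0.14, 0.0553 and 0 CPM (-4.52 ± 0.34, adjusted p = 2.74e-06).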
